A study of Mus musculus with 4 samples.

Results

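The 10 genes described here are the glucocorticoid receptor gene Nr3c1, the receptor-responsive genes Fkbp5, Tsc22d3, Sgk1, Ddit4, Errfi1 and Tat, the glucocorticoid-activating enzyme gene Hsd11b1, and the metallothionein genes Mt1 and Mt2. They were chosen by symbol, and all 10 were found, each on 1 row, among 52192 gene identifiers. The RNA came from AML12, a hepatocyte line of the mouse, after infection with a lentivirus that expressed a hairpin against Safb (shSafb, 2 libraries) or a control hairpin (shCtrl, 2 libraries). Safb encodes a nuclear protein that binds RNA and scaffold-attached DNA. Cells of both groups grew in DMEM/F12 with 10% fetal bovine serum and an insulin, transferrin and selenium supplement. The medium also held 0.1 uM dexamethasone, a synthetic glucocorticoid. A medium change at hour 24 is recorded for every library, and the cells were harvested 5 days after infection. Every value is therefore a level with the hormone present, and cells without dexamethasone were not analysed here. AML12 cells were derived from a mouse that carried a human TGF alpha transgene under a metallothionein promoter.

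The glucocorticoid receptor is a nuclear receptor held in the cytosol by Hsp90 and its partner proteins. Hormone binding releases it to the nucleus, where it acts on DNA elements made of paired hexamers and switches target genes on or off. In liver it is known for raising enzymes of amino acid breakdown and glucose production. Metallothioneins are small, cysteine-rich proteins that bind zinc and copper. Their genes respond to metals through the zinc-sensing factor MTF-1 and also to glucocorticoids.

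Levels are given as TPM, relative transcript abundances that correct for the length of each gene. The lengths used were not given in the sources used here, and comparisons between genes depend on them. Safb itself was at 15.8 and 15.02 TPM in the shSafb libraries and 23.8 and 23.3 TPM in the shCtrl libraries. The hairpin's target was thus 1.53-fold lower (log2 difference -0.56 ± 0.07 SE, limma, Benjamini-Hochberg adjusted p = 0.00411), and much of the transcript remained. All 10 hepatocyte markers checked reached 1 TPM in every library, as did 4 of 5 biliary markers, the exception being Epcam. The summed hepatocyte markers were at 13363 to 13537 TPM in shSafb and 9492 to 9541 TPM in shCtrl. Most of the difference in that sum came from Trf, the transferrin gene, at 6814 and 6778 TPM in shSafb and 2453 and 2418 TPM in shCtrl, while Alb, the albumin gene, was at 122 and 127 TPM in shSafb and 378 and 345 TPM in shCtrl. Among the biliary markers, the keratin gene Krt19 was at 676 and 679 TPM in shSafb and 320 and 320 TPM in shCtrl, and Spp1, the osteopontin gene, was at 610 and 671 TPM in shSafb and 1108 and 1101 TPM in shCtrl. Mitochondrial genes held 0.318% and 0.343% of TPM in shSafb and 0.845% and 0.703% in shCtrl. The part of such differences between the cultures in the results that follow was not tested. Summed markers stayed at 3.25 TPM or less in any library for stellate cells, endothelium and leukocytes. In RNA from whole cultures, fewer cells of a type and less RNA per cell cannot be told apart. Separate cultures are not stated in the labels, and each p-value then reflects just the spread between libraries of a group, which may be technical. For each gene limma moderates that spread with the spread of other genes, and the SE and p-values rest on the moderated value.

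Of the 10 genes, 8 had a mean of at least 1 TPM and were tested. Ddit4, Tsc22d3, Sgk1 and Errfi1 were higher in shSafb, Mt2 and Fkbp5 were lower, and Nr3c1 and Mt1 did not pass the threshold (limma on log2(scaled TPM + 1), adjusted p under 0.05 over all tested genes). That is 4 higher and 2 lower of 8, or 75%, beside 44.3% of all 13111 tested genes (21.9% higher and 22.4% lower). The groups did not overlap in 6 of the 8, beside 74.7% of all tested genes. The median log2 difference was 0.23 over the 8 genes and 0.00 over all tested genes. Tat and Hsd11b1 were below the filter and have values only.

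**Figure D1:**
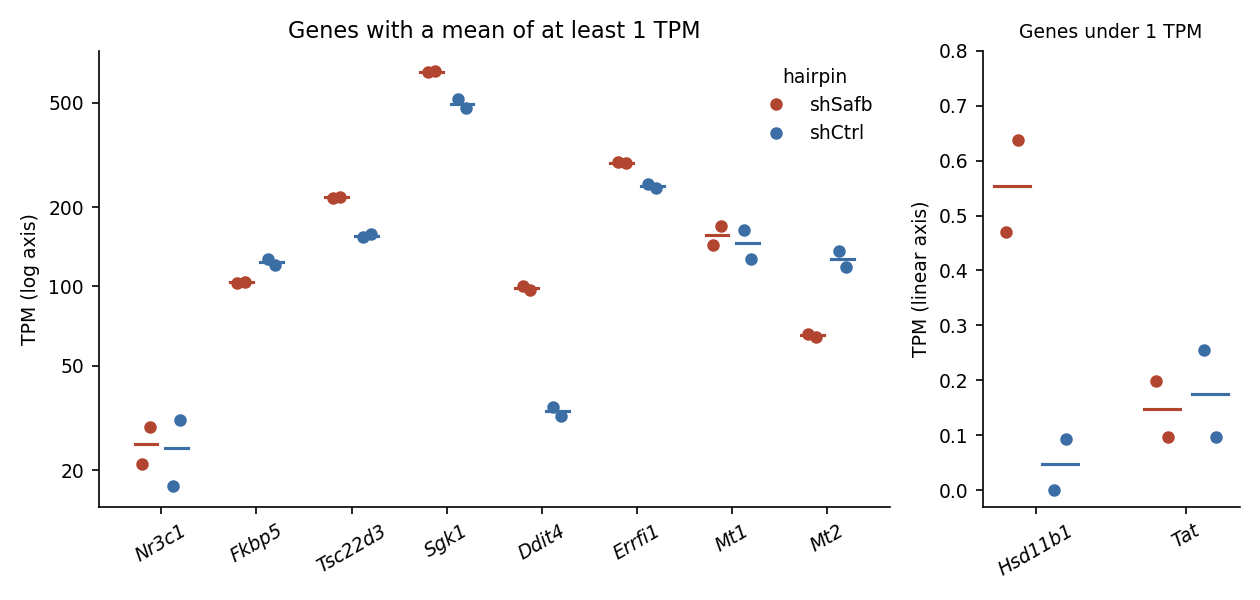
TPM of the 10 genes in each library (points) with group means (lines), shSafb left of shCtrl for every gene, on a log axis for the 8 tested genes and a linear axis for Hsd11b1 and Tat. The points of Nr3c1, Mt1 and Tat overlap between groups, while Ddit4 (98.6 against 33.5 TPM) and Mt2 (65.2 against 127 TPM) lie far apart.

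Nr3c1 encodes the receptor itself and lies on the minus strand of mouse chromosome 18 from 39410545 to 39519421 (mm10). It was at 21.1 and 29.2 TPM in shSafb and at 17.5 and 31.2 TPM in shCtrl. The shSafb values lay between the shCtrl values, so the groups overlapped completely. The log2 difference was 0.11 ± 0.32 (SE, n = 2 each; limma adjusted p = 0.814), with a 95% interval from -0.75 to 0.96. A change of receptor mRNA of nearly that size in either direction was therefore not detectable with these libraries. Its residual SD of 0.48 on the log2 scale was above that of 98.4% of the 5000 tested genes with a mean TPM within a factor of 2 of its own, whose median was 0.07. In both groups the library numbered 2 was the higher. Leaving out shCtrl replicate 1 gave a log2 difference of -0.32 and leaving out shCtrl replicate 2 gave 0.53, so the sign depended on a single library.

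Fkbp5 encodes FKBP51, a co-chaperone that lowers the receptor's affinity for hormone and is itself induced by the receptor. It was at 103 and 104 TPM in shSafb and 127 and 121 TPM in shCtrl. The shSafb values were both below the shCtrl values, with a mean of 104 ± 0.766 TPM against 124 ± 4.59 TPM (SD, n = 2 each). The fall was small, 1.19-fold (log2 difference -0.23 ± 0.04, limma adjusted p = 0.0134). The fall no longer passed without shSafb replicate 1 (adjusted p = 0.0762) or shSafb replicate 2 (0.0684), over a range of 0.00903 to 0.0762 in 12 alternatives. Its residual SD on the log2 scale, before moderation by limma, was 0.01, against a median of 0.05 over 1783 genes of a similar level. The gene lies on chromosome 17 from 28399094 to 28517527 on the minus strand.

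Tsc22d3 encodes GILZ, a leucine zipper protein that carries part of the anti-inflammatory action of glucocorticoids. It had 217 and 219 TPM in shSafb against 154 and 158 TPM in shCtrl. Both shSafb libraries were higher, by 1.40-fold on average (log2 difference 0.51 ± 0.05, limma adjusted p = 0.00256). The direction was opposite to that of Fkbp5, although both are textbook receptor targets. Tsc22d3 is on the X chromosome from 140539528 to 140600659.

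Sgk1 encodes a serum- and glucocorticoid-induced kinase that acts on ion channels and transporters. It was the most abundant of the 10 genes in both groups, at 654 and 656 TPM in shSafb and 515 and 475 TPM in shCtrl. The shSafb libraries nearly coincided and lay above both shCtrl libraries. The rise was 1.32-fold (log2 difference 0.43 ± 0.04, limma adjusted p = 0.00242). Sgk1 lies on the plus strand of chromosome 10, from 21882184 to 21999903.

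The promoter windows of RefSeq (GRCm38.p6), from 250 bases before to 50 after an annotated start, were searched on both strands for the full glucocorticoid response element, which is AGAACA, then 3 bases of any kind, then TGTTCT. Of 32851 windows, 3 (0.00913%) held it, and 1 of these belonged to Sgk1. Windows were searched for 9 of the 10 genes, with 17 windows in all. The Sgk1 window that holds the element is printed because it is the only such match among the genes. It belongs to 1 of 6 annotated Sgk1 starts. The sequence runs over chr10:21993640-21993919 on the plus strand, from 250 bases before the start to 30 after it, and capitals mark the element, at 189 to 175 bases before the start.
Sgk1 promoter: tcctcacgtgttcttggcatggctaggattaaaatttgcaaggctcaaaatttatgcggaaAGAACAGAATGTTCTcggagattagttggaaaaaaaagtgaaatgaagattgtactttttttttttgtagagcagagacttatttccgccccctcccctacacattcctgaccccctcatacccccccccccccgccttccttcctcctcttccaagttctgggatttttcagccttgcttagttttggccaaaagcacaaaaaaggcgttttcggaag
The single hexamer AGAACA, on either strand, was present for 2 of the 9 genes, Sgk1 and Tsc22d3. Over all genes with a window the share was 21.3%, and over all windows 19.0%. Sgk1 had 6 windows and Tsc22d3 had 3, which gave them more places for a match. The hexamer also makes up both arms of the full element, so the matches overlap. These are matches of letters in a window, and receptor binding was not measured. Elements with other letters or outside the windows were not searched, so a gene without a match may still have one.

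Ddit4 encodes REDD1, which restrains the growth kinase complex mTORC1 and is induced by glucocorticoids and by stress. It had the largest change of the 8 tested genes, at 99.9 and 97.2 TPM in shSafb against 34.9 and 32.2 TPM in shCtrl. The shSafb values were nearly equal and far above both shCtrl values. The mean rose 2.94-fold, to 98.6 ± 1.91 TPM in shSafb against 33.5 ± 1.91 TPM in shCtrl (log2 difference 1.55 ± 0.05, limma adjusted p = 5.31e-04). The difference lies above the 95th percentile of all tested genes (0.89) and ranked 204 by size among 13111. Ddit4 lies on the minus strand of chromosome 10, from 59949669 to 59951834.

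Errfi1 encodes MIG-6, a feedback inhibitor of the EGF receptor that is also glucocorticoid-responsive. It was at 297 and 295 TPM in shSafb and 244 and 237 TPM in shCtrl. Both shSafb libraries were higher, with a 1.23-fold rise (log2 difference 0.32 ± 0.04, limma adjusted p = 0.00405). Errfi1 is on chromosome 4 from 150853919 to 150868892. Egfr, encoding the receptor that MIG-6 binds, fell to 60.7 and 60.0 TPM in shSafb, against 119 and 107 TPM in shCtrl (log2 difference -0.87 ± 0.05, limma adjusted p = 9.52e-04).

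The metallothionein genes are neighbours on the plus strand of chromosome 8, Mt2 from 94172664 to 94173568 and Mt1 from 94179082 to 94180327. Mt2 was lower in shSafb and Mt1 did not pass the threshold. Mt2 was at 66.0 and 64.4 TPM in shSafb and at 136 and 119 TPM in shCtrl. Both shSafb libraries were about equal and well below both shCtrl libraries. The mean fell to 65.2 ± 1.09 TPM in shSafb, against 127 ± 12.4 TPM in shCtrl, 1.95-fold (log2 difference -0.93 ± 0.06, limma adjusted p = 0.00121). The difference lies just below the 5th percentile of all tested genes (-0.88).

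Mt1 was at 144 and 169 TPM in shSafb and at 164 and 127 TPM in shCtrl. The highest value was in shSafb and the lowest in shCtrl, but the middle values crossed, so the groups overlapped. The log2 difference was 0.14 ± 0.13 (limma adjusted p = 0.439), with a 95% interval from -0.21 to 0.48. That value depended on which library was left out. It was 0.29 without shCtrl replicate 1 and -0.02 without shCtrl replicate 2. Without shSafb replicate 1 it was 0.25, and without shSafb replicate 2 it was 0.03. The interval of Mt2 ran from -1.09 to -0.76. The residual SD of Mt1, 0.19 on the log2 scale, was above that of 93.9% of 1310 genes of a similar level. Within each library, the ratio of Mt1 to Mt2 TPM was 2.19 and 2.62 in shSafb against 1.21 and 1.07 in shCtrl. Mt1 was thus well above Mt2 in both shSafb libraries and close to it in both shCtrl libraries. How high the ratio stands depends on the lengths behind the TPM. Annotated exons pooled over transcripts cover 1246 bases in Mt1 and 588 in Mt2. In Mt1 they form 1 block over the whole gene, introns of its spliced transcript included, and in Mt2 they form 3 blocks. The 1246 bases are thus not the length of spliced Mt1 mRNA. The log2 ratio differed by 1.07 ± 0.16 between the groups (SE, n = 2 each), and a two-sided exact permutation test gave p = 0.333, the smallest that 2 against 2 libraries allow. The sum of both genes was 222 ± 16.5 TPM in shSafb and 273 ± 38.3 TPM in shCtrl.

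**Figure D2:**
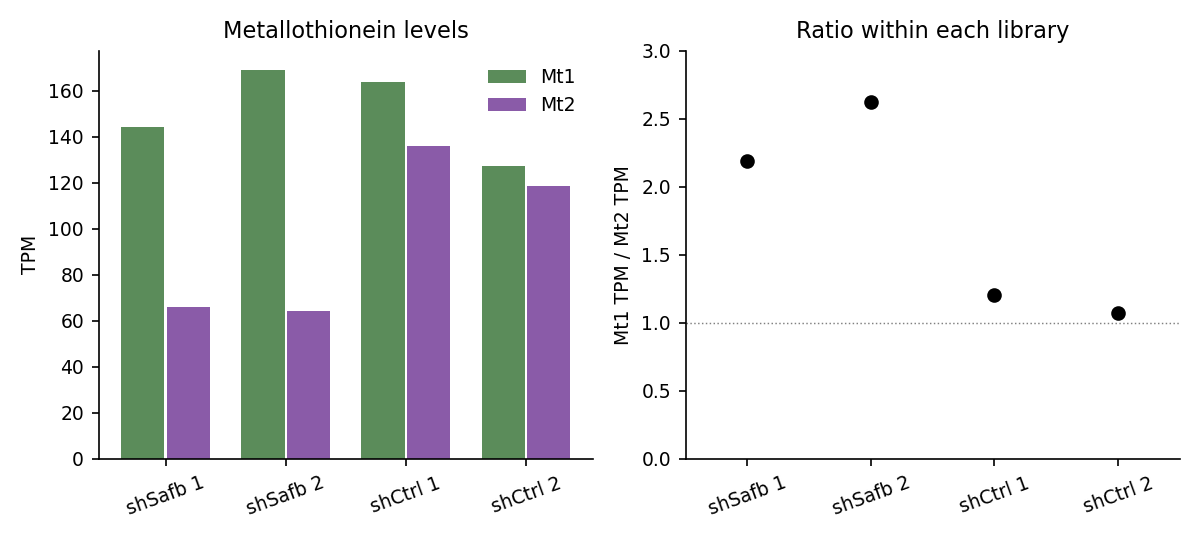
Bars on the left give the TPM of Mt1 and Mt2 in each library, and points on the right give the ratio of Mt1 to Mt2 TPM, with a dotted line at a ratio of 1. Mt2 bars are at 66.0 and 64.4 TPM in shSafb and 136 and 119 TPM in shCtrl, and the ratio is above 2 in both shSafb libraries.

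The coding sequences of Mt1 and Mt2 are printed because Mt2 was called and Mt1 was not, and reads of paralogs can be confused. Both come from GENCODE release M21 on GRCm38, joined over 3 exons from start to stop codon. Mt1 spans chr8:94179311-94180193 and Mt2 spans chr8:94172848-94173427. Capitals mark positions at which the genes differ.
Mt1 coding: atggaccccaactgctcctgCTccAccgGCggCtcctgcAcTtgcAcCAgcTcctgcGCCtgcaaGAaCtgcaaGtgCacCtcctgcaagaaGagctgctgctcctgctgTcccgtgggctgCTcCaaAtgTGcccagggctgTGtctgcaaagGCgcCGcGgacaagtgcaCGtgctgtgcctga
Mt2 coding: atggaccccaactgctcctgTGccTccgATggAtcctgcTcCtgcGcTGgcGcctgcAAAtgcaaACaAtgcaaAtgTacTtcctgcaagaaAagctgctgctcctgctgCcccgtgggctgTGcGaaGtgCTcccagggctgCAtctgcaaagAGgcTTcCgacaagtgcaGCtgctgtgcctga
Each is 186 bases long, with 61 codons before the stop, and 20 of them are cysteine codons in either gene. The sequences are identical at 148 positions (79.6%) and differ at 38. The longest identical run is 20 bases, and no run of 50 bases from any annotated transcript of either gene occurs in the sense strand of another gene's transcripts. An antisense gene, Gm45774, overlaps 73.5% of the exonic bases of Mt2, at a mean of 0.245 TPM. The use of strand in the authors' counting was not given in the sources used here.

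The promoter windows of both genes are printed because each holds several copies of the core of the metal response element, searched as TGCACNC or TGCGCNC on either strand. Of all windows, 25.7% held at least 1 copy, 1.97% at least 3 and 0.517% at least 4. Capitals mark the copies. The Mt2 window is chr8:94172368-94172647 and the Mt1 window chr8:94178839-94179118, both on the plus strand and each from 250 bases before the RefSeq start to 30 after it.
Mt2 promoter: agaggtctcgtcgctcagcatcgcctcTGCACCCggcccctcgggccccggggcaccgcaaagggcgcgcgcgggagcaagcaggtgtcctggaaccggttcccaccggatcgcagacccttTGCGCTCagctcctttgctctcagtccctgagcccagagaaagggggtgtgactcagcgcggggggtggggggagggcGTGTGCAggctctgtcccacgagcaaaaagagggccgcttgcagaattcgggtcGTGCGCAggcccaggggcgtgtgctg
Mt1 promoter: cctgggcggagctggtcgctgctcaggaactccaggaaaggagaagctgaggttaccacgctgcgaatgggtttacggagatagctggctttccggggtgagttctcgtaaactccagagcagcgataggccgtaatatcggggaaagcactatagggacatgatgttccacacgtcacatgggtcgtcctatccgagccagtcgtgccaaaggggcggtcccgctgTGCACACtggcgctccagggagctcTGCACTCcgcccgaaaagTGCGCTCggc
Mt2 held 4 copies, spread from 223 bases before its start to base 11 after it. Mt1 held 3, from 23 bases before its start to base 27 after it. The RefSeq starts used were 94172618 for Mt2 and 94179089 for Mt1, while the coding sequences begin at 94172848 and 94179311. Each gene had 1 window. Bases just after the RefSeq start were found in an annotated GENCODE transcript for Mt1 but in none for Mt2. The GENCODE gene of Mt2 begins only at 94172664, so all 4 copies lie before that start. Which starts are used in these cells was not tested. The copy numbers and positions therefore hold for these windows alone, and a promoter next to another start may lie partly outside them. Neither window held the full glucocorticoid element or its single hexamer. Since 3 of 32851 windows held the full element, its absence from a window says little. The letters do not say which copies are bound in these cells.

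The remaining pair of genes was close to silent. Tat encodes tyrosine aminotransferase, the classical glucocorticoid-induced enzyme of the liver, and lies on chromosome 8 from 109990437 to 109999803. It was at 0.198 and 0.0963 TPM in shSafb and at 0.255 and 0.0961 TPM in shCtrl. The groups overlapped, and no library reached 1 TPM although dexamethasone was present. The hepatic receptor targets Pck1 and G6pc, singled out after their values were seen, were also under 1 TPM. Most targets were not, since 24 of the 30 further target genes listed below passed the filter. The 6 that did not were Pck1, G6pc, Tdo2, Igfbp1, Sds and Lcat, all under 1 TPM on average. Pck1, encoding the gluconeogenic enzyme PEPCK, was listed at 0 in 3 of 4 libraries, and G6pc, encoding glucose-6-phosphatase, was at 0.224 and 0.299 TPM in shSafb and 0.580 and 0.740 TPM in shCtrl.

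Hsd11b1 encodes the enzyme that regenerates active glucocorticoid from its inert keto form, and lies on chromosome 1 from 193221634 to 193264075. It was at 0.470 and 0.638 TPM in shSafb, against 0 and 0.0934 TPM in shCtrl. Both shSafb libraries were higher, yet all values were under 1 TPM and the gene was not tested. TPM keeps no read counts, so the number of reads behind these values is unknown. H6pd, encoding the enzyme that feeds reducing power to the Hsd11b1 protein, was abundant and fell to 231 and 231 TPM in shSafb, against 288 and 278 TPM in shCtrl (log2 difference -0.27 ± 0.04, limma adjusted p = 0.00635). Hsd11b2, encoding the opposing enzyme that inactivates natural glucocorticoids, was at 0.257 and 0.435 TPM in shSafb and 0.370 and 0.185 TPM in shCtrl.

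Levels spanned several orders of magnitude. In shSafb the order from high to low was Sgk1, Errfi1, Tsc22d3, Mt1, Fkbp5, Ddit4, Mt2, Nr3c1, Hsd11b1 and Tat, and no neighbours in that order overlapped. In shCtrl the order was Sgk1, Errfi1, Tsc22d3, Mt1, Mt2, Fkbp5, Ddit4, Nr3c1, Tat and Hsd11b1. There the ranges of Tsc22d3 and Mt1 overlapped, as did those of Mt1 and Mt2 and those of Mt2 and Fkbp5. Within each shCtrl library Mt1 was still above Mt2 (ratios 1.21 and 1.07), so overlapping ranges do not show equal levels. With 2 libraries a group, these orders are descriptions.

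**Figure D3:**
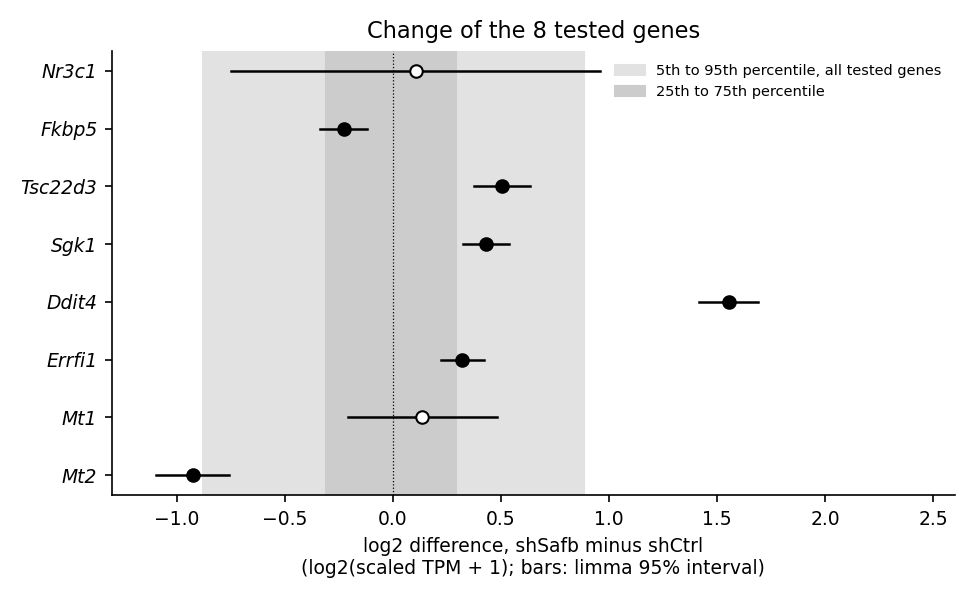
Log2 difference, shSafb minus shCtrl, of the 8 tested genes with 95% intervals from limma, filled where the adjusted p was under 0.05. Shaded bands give the middle 50% and 90% of all tested genes. Ddit4 (1.55) and Mt2 (-0.93) lie outside the wider band, and the widest interval is that of Nr3c1.

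Lists around these genes were read in the same fit, by role. Of 13 tested chaperone genes of the receptor complex, 5 were lower and 0 higher, with a median log2 difference of -0.13 beside 0.00 over all tested genes. The share called was 38.5%, beside 44.3% of all tested genes (21.9% higher and 22.4% lower). Hsp90ab1, which encodes the constitutive Hsp90 isoform, fell to 470 and 451 TPM in shSafb, against 668 and 595 TPM in shCtrl (log2 difference -0.43 ± 0.05, limma adjusted p = 0.00496). Stub1, which encodes the ubiquitin ligase CHIP of the Hsp90 and Hsp70 machinery, fell 1.47-fold. It shares 42.3% of its exonic bases with Jmjd8 on the opposite strand (mean 14.0 TPM) and is uncertain for that reason. Dnajb1 and Bag1, both encoding Hsp70 co-chaperones, fell 1.35-fold and 1.33-fold. The fifth gene called lower was Ppp5c, named after its values were seen because the count is small. Fkbp4, which encodes the co-chaperone FKBP52 that competes with FKBP51 for the receptor complex, was at 379 and 358 TPM in shSafb and 408 and 405 TPM in shCtrl (log2 difference -0.11 ± 0.05, limma adjusted p = 0.115).

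Of 14 tested coregulator genes, 1 was lower and 0 were higher (median -0.02), which is 7.14% called beside 44.3% of all tested genes. The gene called was Ncoa2, encoding the coactivator GRIP1, at 17.9 and 17.6 TPM in shSafb and 24.98 and 21.5 TPM in shCtrl (log2 difference -0.34 ± 0.08, limma adjusted p = 0.0265). It did not pass when shCtrl replicate 1 was left out (adjusted p = 0.0824), nor without shSafb replicate 1 (0.0897) or shSafb replicate 2 (0.103), over a range of 0.0216 to 0.103.

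Of 11 genes for steroid metabolism, export and related receptors, 7 were tested, with 2 higher and 2 lower (57.1% called, beside 44.3% of all tested genes, median -0.03). Akr1d1, encoding a liver reductase that clears glucocorticoids and makes bile acids, fell to 4.95 and 5.99 TPM in shSafb, against 24.1 and 22.8 TPM in shCtrl. The fall was 4.29-fold (log2 difference -1.90 ± 0.10, limma adjusted p = 8.63e-04). Srd5a1, encoding another steroid reductase, moved the other way, to 18.2 and 18.8 TPM in shSafb against 7.54 and 7.06 TPM in shCtrl (log2 difference 1.26 ± 0.07, limma adjusted p = 8.86e-04). Srd5a3, from the same family and known for dolichol synthesis, rose 1.39-fold, a call lost without shSafb replicate 2 (adjusted p = 0.0503, over a range of 0.00928 to 0.0503). Nr3c2, the mineralocorticoid receptor gene, was low and overlapped between groups, at 2.998 and 2.92 TPM in shSafb and 3.14 and 2.95 TPM in shCtrl (log2 difference -0.01 ± 0.11, 95% interval -0.30 to 0.28).

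Of 30 further genes known to respond to glucocorticoids, 24 were tested, with 12 higher, 5 lower and 7 not past the threshold (median 0.24). That is 70.8% called, beside 44.3% of all tested genes. Orm1, which encodes the acute phase protein orosomucoid, rose to 19.1 and 18.1 TPM in shSafb, against 3.80 and 3.44 TPM in shCtrl (log2 difference 2.11 ± 0.09, limma adjusted p = 6.11e-04). Dusp1, which encodes a phosphatase that switches off MAP kinases, rose to 172 and 180 TPM in shSafb, against 87.4 and 88.3 TPM in shCtrl (log2 difference 1.02 ± 0.05, limma adjusted p = 7.82e-04). Irs2, an insulin receptor substrate gene, rose 2.39-fold and the clock gene Per1 rose 1.68-fold. Sult1a1, a sulfotransferase gene, fell 1.81-fold. Klf9, encoding a zinc finger factor strongly induced by glucocorticoids in many cells, was at 89.8 and 93.7 TPM in shSafb and 105 and 98.8 TPM in shCtrl (log2 difference -0.13 ± 0.05, limma adjusted p = 0.0896). Textbook targets of the receptor therefore lay on both sides of 0 and short of the threshold within the same libraries.

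**Figure D4:**
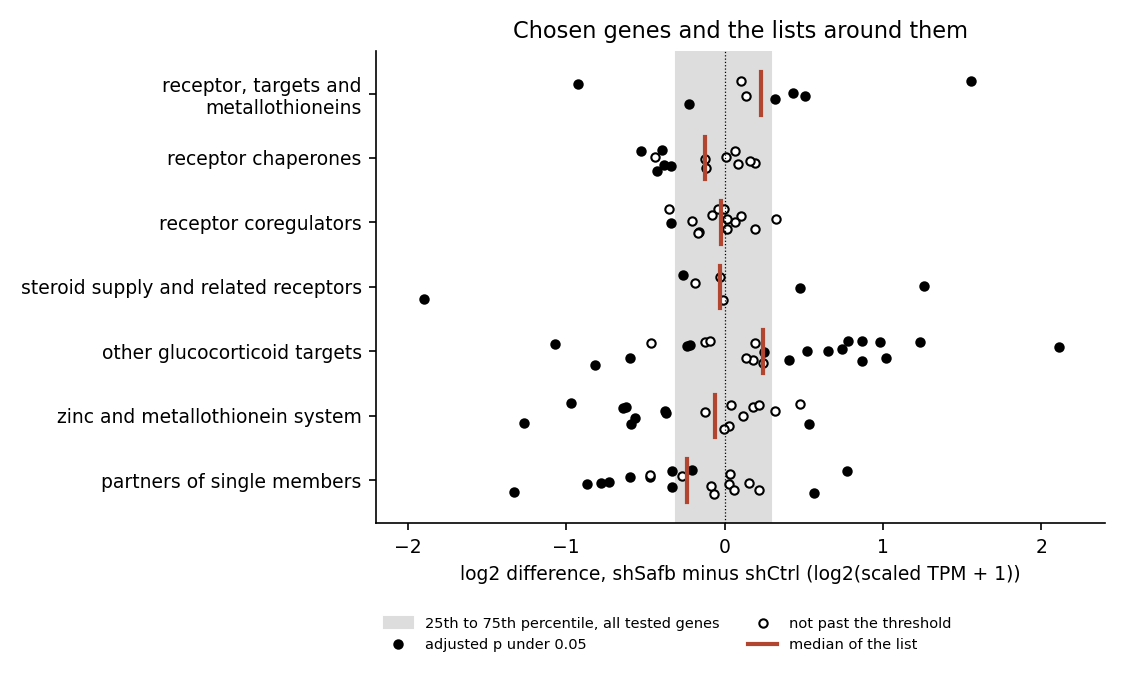
Log2 difference, shSafb minus shCtrl, of each tested gene (points, filled where the adjusted p was under 0.05) in the 10 chosen genes and 6 lists around them, with list medians (red) and the middle 50% of all tested genes (grey). Medians run from -0.24 for the partner genes to 0.24 for the other glucocorticoid targets, and the coregulators have a single filled point.

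The zinc and metallothionein list had 18 tested genes of 22, with 1 higher and 8 lower (median -0.06). That is 50% called, near the 44.3% of all tested genes (21.9% higher and 22.4% lower), but the calls in this list were mostly lower. Mtf1, which encodes the metal-sensing factor that drives Mt1 and Mt2, fell to 8.65 and 9.12 TPM in shSafb, against 15.03 and 13.4 TPM in shCtrl (log2 difference -0.59 ± 0.08, limma adjusted p = 0.00637). It shares 8.09% of its exonic bases with an opposite-strand gene. Slc30a1, another MTF-1 target, encoding the zinc exporter of the cell surface, was at 11.3 and 11.5 TPM in shSafb and 13.2 and 12.3 TPM in shCtrl (log2 difference -0.13 ± 0.07, limma adjusted p = 0.221). Slc30a5, encoding a zinc importer of the secretory pathway, fell 2.03-fold, to 24.6 and 24.4 TPM in shSafb against 49.6 and 49.8 TPM in shCtrl. The zinc transporter genes Slc39a11 and Slc39a1 fell 2.53-fold and 1.51-fold. Slc39a14, encoding the inflammation-responsive liver importer ZIP14, was the gene called higher, at 82.9 and 75.5 TPM in shSafb against 57.4 and 53.4 TPM in shCtrl (log2 difference 0.53 ± 0.07, limma adjusted p = 0.00456). Mt3, the brain metallothionein gene, was listed at 0 in 3 of 4 libraries.

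Partner genes of Tsc22d3, Sgk1, Ddit4, Errfi1 and Tat had 20 tested members of 23, with 2 higher and 9 lower (median -0.24). That is 55% called, beside 44.3% of all tested genes, of which 22.4% were lower. Sesn3 and Sesn2 encode sestrins, which restrain mTORC1 as REDD1 does. Sesn3 fell to 12.1 and 13.0 TPM in shSafb, against 34.1 and 32.97 TPM in shCtrl (log2 difference -1.33 ± 0.07, limma adjusted p = 7.92e-04). Sesn2 fell 1.78-fold, so both moved opposite to Ddit4. Gstz1, encoding an enzyme further down the tyrosine breakdown route that starts with Tat, fell 1.70-fold. It shares 9.14% of its exonic bases with Pomt2 on the opposite strand.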

How the data were processed

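RNA from 4 libraries was analysed, 2 per hairpin, grouped and numbered by their titles. The libraries were stranded and made after ribosomal RNA was removed, per the labels' protocols. The submitters' processing notes name DESeq2, HISAT2, HTSeq, StringTie and the build mm10, without versions or roles. The values are the authors' deposited TPM. TPM keeps no read totals, so the depth is unknown and intervals for counting error cannot be given.

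Identifiers on more than 1 row (6) were summed, and positions came from GENCODE M21. Genes with at least 1 TPM on average (13111) were scaled by median ratios (factors 0.991 to 1.031). log2(TPM + 1) was fitted on group alone with limma 3.58.1 (R 4.3.3), with an intensity trend, and p-values were two-sided and adjusted by Benjamini-Hochberg over all tested genes, with a threshold of 0.05. The fit had 2 residual degrees of freedom and a prior of 2.61. Folds are ratios of mean TPM. The fit was tested on simulated data, with noise drawn at its own moderated spread. Its estimates followed the fold changes put in, which that design makes likely, and this does not give the share of changes called. There the share of false calls was above the 0.05 aimed at for each size of fold change. Calls near the threshold are therefore less secure than their adjusted p. Far fewer genes were changed in the simulation than the 44.3% called in the data, so the share of false calls in the data may differ.

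The 10 genes, the 6 lists and the rule for names were chosen with earlier results of these data known. The rule names the 10 genes, Safb, from each list up to 4 called genes of smallest p with non-overlapping groups and a mean of at least 2 TPM, and 10 fixed genes. RefSeq promoter windows were searched with Python 3.11.15 (numpy 2.4.6, pandas 2.3.3), and plots were made with matplotlib 3.10.9. The 12 alternatives covered the pseudocount, filter, scaling, variance trend, replicate block and each library left out.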

Additional observations from a re-analysis of the deposited data

How the results depend on the processing

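Ddit4, Tsc22d3, Sgk1, Errfi1 and Mt2 kept their call and direction in all 12 alternatives, and Nr3c1 and Mt1 passed the threshold in none. The log2 difference ran from -0.999 to -0.86 for Mt2, from 1.52 to 1.58 for Ddit4, from -0.02 to 0.29 for Mt1 and from -0.32 to 0.53 for Nr3c1. Leaving out each library in turn gave 4 of the genes higher each time and 1 to 2 lower, the loss being Fkbp5 without either shSafb library. Over all genes it gave 1754 to 2151 higher and 1970 to 2161 lower, against 2867 and 2938 with all libraries, and fewer samples make up these fits. When 1 library remained in a group, it was assumed to vary like the other group. Fkbp4 passed the threshold (adjusted p = 0.0411) with TPM rescaled after leaving out small RNA and mitochondrial genes, and the cause was not tested.

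The labels do not say that equal replicate numbers pair the libraries. Deviations of same-numbered libraries correlated at -0.06 over 13111 genes. With the number as a replicate block, 2540 genes were higher and 2686 lower, and the 10 genes still gave 4 higher and 2 lower. With no filter, 5 of the genes were higher, Hsd11b1 being the addition, beside 21.1% of all genes called in either direction. At a minimum mean of 0.1 TPM, Hsd11b1 enters only through its shSafb values, so that call is not read. The unknown depth limits what can be read from Hsd11b1 and Tat, and 2 libraries a group limit every interval.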
